A study of Gallus gallus with 32 samples.

Results

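The transcripts of the pituitary gland were compared between week 5 and week 3 of age in chickens of the Lean line. The comparison takes the 4 arrays of lean birds at week 3 and the 4 at week 5, which are 8 of the 32 arrays of the study, and it covers every probe that could be tested. The lean line and its counterpart, the Fat line, had been bred apart for 7 generations by selection on the weight of abdominal fat, and all birds were raised as broilers. Pituitary RNA was collected at weeks 1, 3, 5 and 7 in both lines, with 4 arrays for each line and age. Each sample was amplified, labelled with the dye Cy3 and hybridised together with a Cy5-labelled pool made from all 32 RNAs. A value below is therefore the log2 ratio of a sample over this pool, and a change is the mean of the week 5 arrays minus the mean of the week 3 arrays on that scale. The series describes the 4 arrays of a group as biological replicates of individual samples. The p-values rest on the spread between arrays of a group, pooled over all 8 groups and not only those compared. The sources used here do not give the sex of the birds.

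The pituitary gland holds separate cell types that each release one hormone or a small set of hormones into the blood. Somatotrophs make growth hormone, lactotrophs prolactin, thyrotrophs thyrotropin, gonadotrophs the gonadotropins, and corticotrophs the corticotropin that is cut from pro-opiomelanocortin. Thyrotropin and the gonadotropins share an alpha chain, the product of CGA, and each has a beta chain of its own. In young chickens the gland governs growth, the thyroid axis and the adrenal axis while the gonads are still immature. In a bulk sample such as this, fewer cells of a type and less RNA per cell cannot be told apart.

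Each of the 8 arrays gave between 14409 and 16096 usable spots of 19200, with a median Cy3 signal of 3.99 to 5.74 times the local background. The spread of single arrays around their group mean ran from 0.20 to 0.27, and it was widest on replicate 2 of week 5, whose Cy5 signal was also the lowest of the 8. The probes of the 6 measured hormones were usable on 8 of 8 arrays, with a median Cy3 signal between 11.4 times (POMC) and 81.7 times (GH) the background, so the defining transcripts of the labelled tissue were present. One scan was deposited both as lean and as fat replicate 2 of week 7, and both of these arrays were left out of the fit. Replicates 2 of weeks 3 and 5 carry the same day in their file headers, as do replicates 4, and the differences within these days are given for the leading genes.

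No transcript passed the test between week 3 and week 5 in the lean line. Of 14745 probes, limma called 0 at an adjusted p of 0.05 (0% higher and 0% lower), and the smallest adjusted p was 1.00. An unadjusted p under 0.05 was reached by 278 probes, which is 1.89%, of which 138 (0.936%) were higher and 140 (0.949%) lower at week 5. If nothing differed, a share of 0.05 of the probes would be expected to reach it, so 1.89% lies below that level. On these 14745 probes the count depended on the fit and was 466 with only the 8 lean arrays. It ran from 213 without week 5 replicate 2 to 846 with array weights and a replicate block, a setting chosen after seeing the data. The usable arrays of one age, 2 to 4 per group, lay wholly above those of the other for 316 probes (2.14%). Of these, 172 were higher (1.17%) and 144 lower (0.977%). Groups lie apart by chance more readily when fewer arrays are usable, and 12530 of the probes had 4 usable arrays at both ages. The share expected by chance was not computed, so a lack of overlap is only a description here and for the genes below. Among the 5756 genes, each represented by its brightest probe, 96 (1.67%) had an unadjusted p under 0.05, 52 of them higher (0.903%) and 44 lower (0.764%). In all 3044 genes (52.9%) lay below 0, and the median change was -0.01.

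Under the processing used here, the arrays bounded most changes within 1 log2 unit. The median standard error of a change was 0.17, and the 95% interval lay within 1 log2 unit on either side of 0 for 13894 probes, or 94.2%. It lay within 0.5 log2 units for 9244 probes, or 62.7%. These intervals do not cover the choice of processing. With the authors' deposited log2 ratios AIG1 changed by 0.79, against 0.22 (SE 0.09) here, and RDM1 by -0.11, against -0.60 here. At the median standard error a lone probe would have needed a change of 0.99 to pass. Only 41 probes differed by more than 1 log2 unit, and 327 by more than 0.5. The plot of change against p shows this narrow cloud with a few genes outside it.

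**Figure D1:**
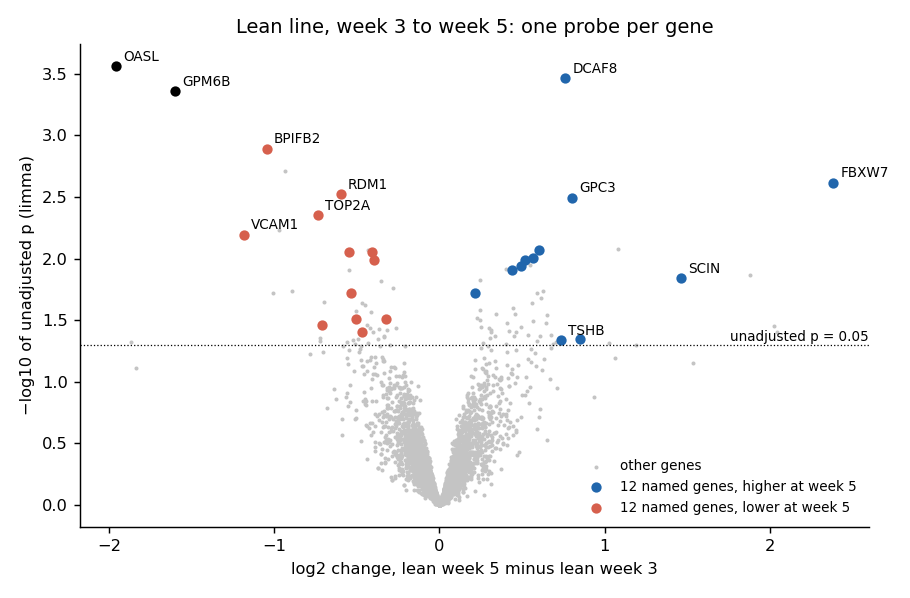
Change from week 3 to week 5 in the lean line (x axis, log2) against the unadjusted limma p (y axis, −log10) for 5756 genes, each by its brightest probe. Blue and red points are the 12 named genes per direction and black points are OASL and GPM6B; none of these points passed the adjusted threshold.

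Since no gene passed, the genes below are the 12 per direction with the smallest unadjusted p among those whose week 3 and week 5 arrays did not overlap. This choice fixes the sign of their differences within a header day. The size of these differences comes from the same arrays that chose the genes, so it is a description only. In all, 113 genes (1.96%) had no overlap, 57 of them higher (0.990%) and 56 lower (0.973%). None of the 24 passed, each with an adjusted p of 1.00.

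DCAF8, a substrate receptor of cullin-based ubiquitin ligases, had the smallest p among the genes that were higher. Its log2 ratio was -0.64, -0.18, -0.41 and -0.41 on the week 3 arrays and 0.31, 0.74, 0.18 and 0.17 on the week 5 arrays. The week 3 arrays all lay below 0 and the week 5 arrays all above it. The change was 0.76 (SE 0.18, 95% interval 0.38 to 1.14, adjusted p = 1.00), a 1.69-fold difference. Within the 2 shared header days it was 0.91 and 0.59. Without background correction the DCAF8 change was 0.39.

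FBXW7, which selects proteins for destruction by SCF ubiquitin ligases, had the largest change of the named genes, but it rested on 1 array. It stood at -0.77, 0.05, -0.37 and -0.33 at week 3 and at 5.14, 0.82 and 0.13 at week 5, where replicate 4 was not usable. The value of 5.14 belongs to replicate 1. The change of 2.38 (SE 0.69) was 0.83 without that array. SCIN, the actin-severing protein scinderin, showed the same shape, with -0.24 to 0.12 at week 3 and 4.05, 0.41, 0.61 and 0.51 at week 5. Its change of 1.46 (SE 0.55) was 0.57 without replicate 1 of week 5.

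GPC3, a proteoglycan of the cell surface, was low in lean birds at week 3, at -1.22, -0.72, -1.08 and -0.87, and stood at -0.06, 0.09, -0.19 and -0.52 at week 5. The groups lay apart, with a change of 0.80 (SE 0.25, 95% interval 0.29 to 1.31). A dimmer GPC3 probe gave 0.52 (SE 0.28) with overlapping arrays, and in the fat line the brighter probe differed by 0.42 (SE 0.25). BTG2, an early response gene that restrains cell division, stood at -0.07 to 0.11 at week 3 and at 1.14, 0.36, 0.59 and 0.54 at week 5. Its change was 0.60 (SE 0.21), whereas a dimmer BTG2 probe gave 0.03 (SE 0.27), so the probes of this gene disagreed.

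The other genes of this direction differed by 0.22 to 0.85. GFRA2, a co-receptor for the neurotrophic factor neurturin, stood at -1.06 to -0.59 at week 3 and at -0.37 to -0.04 at week 5, a change of 0.57 (SE 0.20). ZFYVE1, a lipid-binding protein of the endoplasmic reticulum and Golgi, stood at 0.17 to 0.32 and then at 0.70 to 0.83 on the 3 usable arrays of week 5. SUCLG1, a subunit of the succinyl-CoA ligase of the citric acid cycle, differed by 0.49 (SE 0.18), with week 3 replicate 1 at -0.93 and the other week 3 arrays at 0.13 to 0.27, and by 0.21 without that array. DIPK2A, a kinase-like protein of the secretory pathway, differed by 0.44, and the lipid hydrolase AIG1 by 0.22. PLA2R1, a receptor for secreted phospholipases, differed by 0.85, or by 0.52 without background correction. TSHB completes the list and is described with the hormones.

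Among the genes that were lower, BPIFB2, a member of a family of lipid-binding secreted proteins, had the smallest p. It stood at 0.11, -0.02, 0.23 and -0.10 at week 3 and at -0.64, -1.89 and -0.45 at week 5, where replicate 4 was not usable. Every usable week 5 array lay below every week 3 array, with replicate 2 farthest down. The change was -1.04 (SE 0.29, 95% interval -1.64 to -0.45, adjusted p = 1.00), and without 1 array at a time it ran from -1.32 to -0.60.

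RDM1, an RNA- and DNA-binding protein related to RAD52, stood at 0.57, 0.76, 1.05 and 1.13 at week 3 and at 0.19, 0.31, 0.09 and 0.53 at week 5. The highest week 5 array lay just under the lowest week 3 array. The change was -0.60 (SE 0.18), while a dimmer probe gave 0.14 (SE 0.46) and the authors' deposited log2 ratios gave -0.11 for the brighter one. ABL1, a tyrosine kinase, stood at 0.20 to 0.46 at week 3 and at 0.01, -0.53, -0.49 and 0.13 at week 5, a change of -0.55 (SE 0.19). TCF21, a transcription factor of mesenchymal cells, stood at 0.50, 0.60, 0.09 and 0.44 and then close to 0 on every week 5 array, between -0.09 and 0.05, a change of -0.41 (SE 0.14).

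PMPCA, a subunit of the peptidase that trims proteins imported into mitochondria, differed by -0.40 (SE 0.14), and its dimmer probe by -0.33 (SE 0.16). VCAM1, an adhesion molecule of activated endothelium, differed by -1.19 (SE 0.39) or by -0.69 without week 3 replicate 3, but was usable on only 2 week 3 arrays, at 1.06 and 2.05, and on 3 week 5 arrays, at 0.16 to 0.66. RASL10B, a small GTPase related to Ras, differed by -0.71 (SE 0.31) on 3 arrays per age, but by -0.073 when spots with poor marks were kept. The remaining genes of this direction, TOP2A, MCM6, MCM2, HBA1 and HBBA, belong to the cell cycle and the red blood cell and are described together below. The plot of the named genes by array shows how far FBXW7, SCIN and BPIFB2 depended on single arrays.

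**Figure D2:**
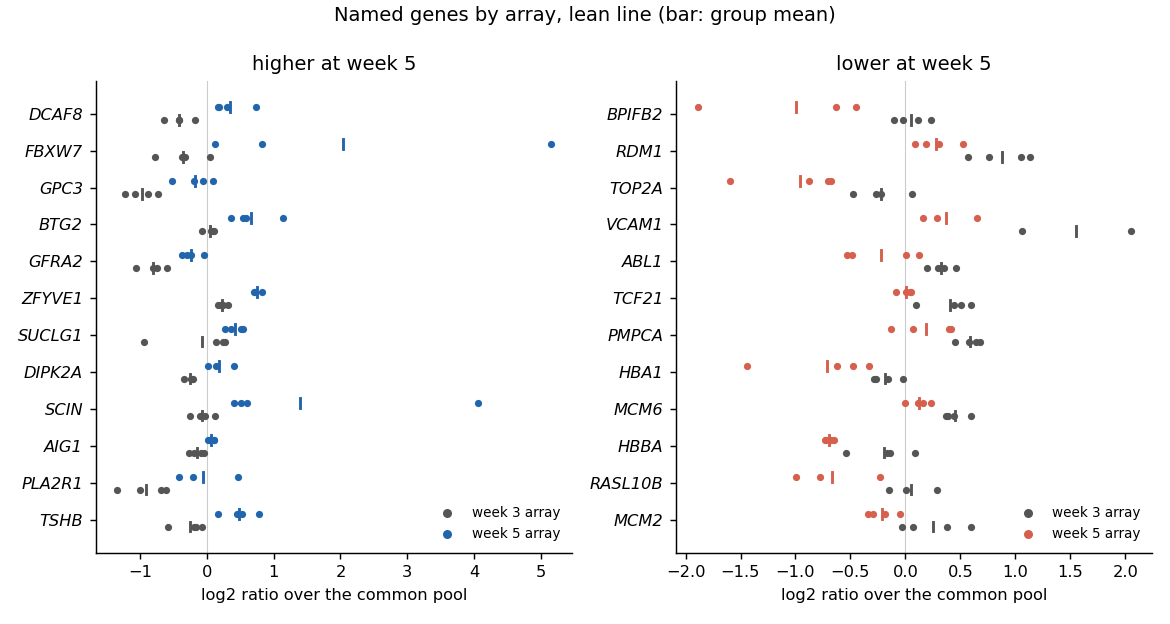
Log2 ratio over the common pool (x axis) of the 12 named genes per direction in the lean line; each point is an array, grey for week 3 and coloured for week 5, and a bar marks the group mean. FBXW7 at 5.14 and SCIN at 4.05 are single week 5 arrays far from the others, whereas those of DCAF8 lie below 0 at week 3 and above 0 at week 5.

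The hormone transcripts were the products most particular to the gland, and none of the 6 measured ones passed. TSHB, the beta chain of thyrotropin, was the one hormone whose groups lay apart. It stood at -0.07, -0.16, -0.57 and -0.20 on the week 3 arrays and at 0.53, 0.45, 0.16 and 0.79 on the week 5 arrays. All week 3 arrays were below the pool and all week 5 arrays above it, so any difference within a header day had to be positive. The change was 0.73 (SE 0.35, 95% interval 0.01 to 1.46, adjusted p = 1.00), a 1.66-fold difference, and within the shared header days it was 0.62 and 0.99. The standard error rests on the spread within all 8 groups. In the lean arrays alone the standard deviation of TSHB was 0.22 at week 3 and 0.26 at week 5.

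In the fat line TSHB differed by -0.03 (SE 0.35) over the same weeks, and the difference between the lines of 0.76 (SE 0.50) did not pass (limma, adjusted p = 1.00). The lean group means from week 1 to week 7 were -0.14, -0.25, 0.48 and 0.85, so that of week 5 lies between its neighbours in age. The fat means were -0.41, -0.14, -0.17 and -0.12 at the same ages. CGA, the alpha chain that pairs with TSHB and FSHB, stood at -0.65, -0.25, 0.11 and 0.05 at week 3 and at 0.36, -0.88, -0.72 and -0.28 at week 5 in lean birds. Its groups overlapped throughout, with a change of -0.20 (SE 0.32) that ran from -0.44 to -0.031 without 1 array at a time.

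Growth hormone and prolactin varied widely between birds at week 5. GH stood at -0.02, 0.20, -0.36 and -0.03 at week 3 and at 0.30, -1.15, -0.73 and -0.26 at week 5. The week 5 arrays spanned the range of week 3 and reached far below it, with a standard deviation of 0.62 against 0.23. The change was -0.41 (SE 0.32, 95% interval -1.07 to 0.25), and a dimmer GH probe gave 0.13 (SE 0.19). Without week 5 replicate 1 the GH change was -0.66, and without replicate 2 it was -0.18. PRL stood at -0.06, -0.10, 0.33 and 0.17 at week 3 and at 0.37, -0.80, -0.32 and -0.78 at week 5. Replicate 1 was the highest week 5 array for both hormones and replicate 2 the lowest. The PRL change was -0.47 (SE 0.25, 95% interval -0.98 to 0.05), against -0.23 (SE 0.25) in the fat line, and it was -0.72 without week 5 replicate 1.

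FSHB, the beta chain of follitropin, was the most variable hormone, with -0.63 to 0.92 at week 3 and -0.89 to 1.20 at week 5. Its change of -0.16 (SE 0.50) had an interval from -1.18 to 0.87 and took the opposite sign without any 1 of 3 arrays. POMC, the precursor of corticotropin, was the least variable, at -0.43 to -0.14 and then -0.22 to -0.01. It differed by 0.11 (SE 0.13, 95% interval -0.16 to 0.38), a second probe by -0.05 (SE 0.14). The median of the 6 hormones was -0.18, beside -0.01 over all genes, with 2 above and 4 below 0. Without 1 lean array at a time it ran from -0.30 to 0.04, so its sign was not stable. Over all alternatives of the processing it ran from -0.43 to 0.04. On single arrays the median over the hormones ran from -0.17 to 0.01 at week 3 and from -0.84 to 0.33 at week 5. The plot of hormones by age places these values beside the other ages and the fat line.

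**Figure D3:**
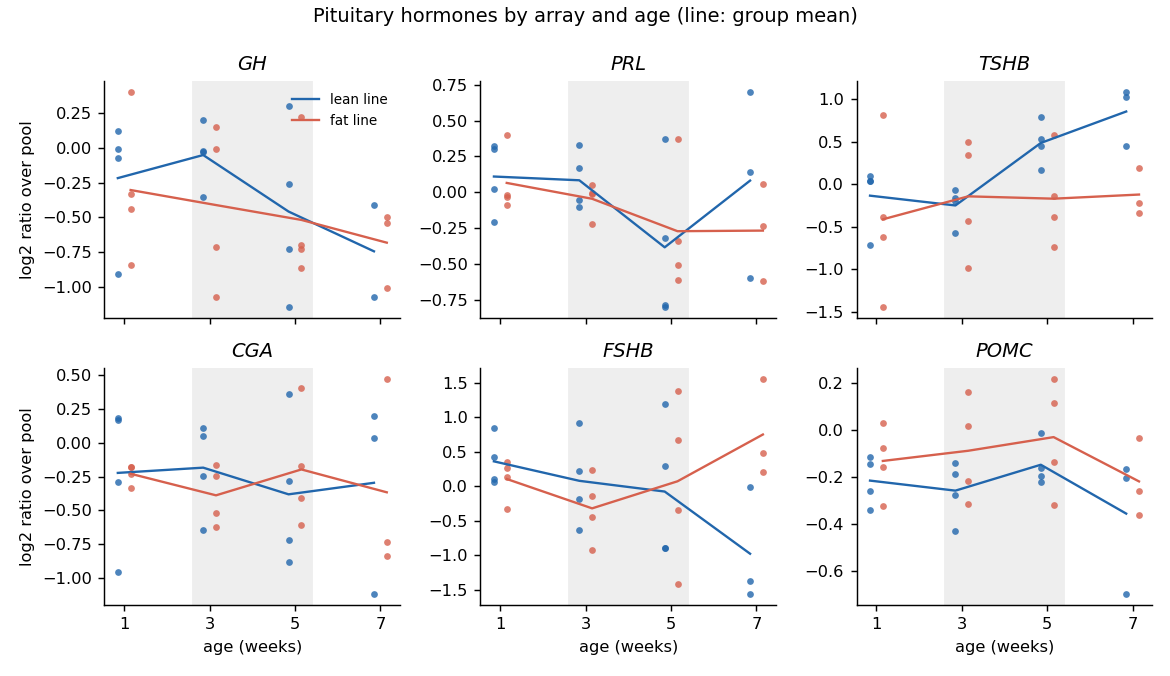
Log2 ratio over the common pool (y axis) of the 6 measured hormone transcripts by age in weeks (x axis), without the scan deposited for both lines; points are arrays and lines join group means, blue for lean and red for fat, with weeks 3 and 5 shaded. In the lean line TSHB has mean ratios of -0.25 at week 3 and 0.48 at week 5, while the arrays of GH, PRL, CGA and FSHB overlap between these ages.

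Transcripts for prohormone processing and for granule proteins were mostly higher, without a call. The list of prohormone processing and granule cargo holds 12 measured genes, of which 10 were higher and 2 lower at week 5. Like all lists here, it was chosen with earlier results of these data known. None passed, 1 had an unadjusted p under 0.05 (1.67% of all genes), and 2 had no overlap (1.96% of all genes). Their median of 0.17 was the highest of 27 lists, beside -0.01 over all genes. FURIN, a protease that activates precursor proteins, stood at -1.04, -0.58, -0.58 and -0.38 at week 3 and at -0.38, 0.07, -0.31 and -0.34 at week 5. Its groups met at -0.38 without crossing, and the change was 0.40 (SE 0.19), or 0.16 without background correction. ATP6AP2, an accessory part of the vesicle proton pump, differed by 0.30 (SE 0.21), SCG3, a granule protein, by 0.28 (SE 0.24; 0.16 to 0.47 without 1 array at a time), and SCG5, a chaperone of a prohormone convertase, by 0.21 (SE 0.18). The 2 lower genes were CHGA, at -0.32 (SE 0.31), and CPD, at -0.10 (SE 0.16). The same list had a median of 0.11 in the fat line. Without 1 lean array at a time the lean median lay between 0.07 and 0.23, and over all alternatives of the processing it fell as low as 0.05. The median over the list on single arrays ran from -0.13 to 0.23 at week 3 and from 0.02 to 0.26 at week 5, where replicate 2 was the highest.

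Regulators of the hormone cells differed little. Of 8 measured pituitary transcription factors 1 was higher and 7 lower, with a median of -0.03. NEUROD1, a factor of corticotrophs, differed by -0.32 (SE 0.19), with week 3 replicate 1 at 1.08 and the other week 3 arrays at 0.21 to 0.46, and by -0.13 without that array. Of 12 receptors for hypothalamic and feedback hormones 9 were higher and 3 lower, with a median of 0.05. The largest change among them was that of THRA, a thyroid hormone receptor, at 0.68 (SE 0.33). Week 5 replicate 3 stood at 1.77, while the other week 5 arrays stood at -0.26 to 0.07, and without that array the change was 0.21. LEPR, the leptin receptor, differed by 0.32 (SE 0.30), or by 0.20 without week 5 replicate 2. For thyroid hormone action 6 of 9 genes were higher, with a median of 0.05, and for growth hormone and IGF signalling 4 of 9, with a median of -0.03. None of these genes passed.

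The gene with the smallest p of all, OASL, does not appear among the 24 genes above, because 1 of its week 3 arrays overlapped week 5. It and the probes that varied like it were singled out after their values were seen. OASL, an oligoadenylate synthetase-like protein induced by interferon in birds, stood at 0.73, 1.24, -0.83 and 0.71 at week 3 and at -0.56, -3.27, -1.32 and -0.83 at week 5. Replicates 1, 2 and 4 of week 3 were high, replicate 3 was as low as the week 5 arrays, and replicate 2 of week 5 was the lowest. The change was -1.96 (SE 0.46, 95% interval -2.91 to -1.0, adjusted p = 1.00), a 3.88-fold difference. Without week 3 replicate 3 it was -2.39 with an adjusted p of 0.107, and without week 5 replicate 2 it was -1.36. Within the shared header days it was -4.51 and -1.54.

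The probes assigned to OASL disagreed. Dimmer probes of the gene gave -2.18 (SE 0.54) and -2.16 (SE 0.56) with the same order of arrays, and the others gave 0.00 (SE 0.11) and 0.04 (SE 0.20). Over the 30 arrays of the fit, the probes most like the brightest OASL probe included GPM6B, a membrane proteolipid of neurons and glia, at a correlation of 0.95, a probe of DRG2, a GTP-binding protein, at 0.94, and ZNFX1, a helicase induced by interferon in mammals, at 0.91. The probe most like it, at 0.98, carries no gene name. All share the pool channel and the same 30 RNAs, and group means were not removed, so these correlations are descriptions.

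GPM6B stood at 0.52, 0.91, -1.07 and 0.75 at week 3 and at -0.61, -2.35, -1.12 and -1.21 at week 5, so it followed the OASL pattern array by array, with a change of -1.60 (SE 0.40). The DRG2 probe differed by -2.06 (SE 0.53), whereas the brightest DRG2 probe gave 0.00 (SE 0.13). ZNFX1 stood at 1.40, 1.17, 0.44 and 0.97 and then at 0.49, -0.58, -0.05 and 0.40. Its change of -0.93 (SE 0.27) also had its lowest week 3 array in replicate 3 and its lowest week 5 array in replicate 2. In the fat line OASL differed by -1.36 (SE 0.46), GPM6B by -1.59 (SE 0.40) and ZNFX1 by -0.98 (SE 0.29), and none of the differences between the lines passed.

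Of 17 measured genes of interferon response and antigen presentation 5 were higher and 12 lower, with a median of -0.07, beside -0.07 in the fat line. Unadjusted p-values under 0.05 were reached by 4 of them, in each case with a lower level at week 5, beside 0.764% of all genes in that direction. This list too was chosen with earlier results of these data known, so the count is a description. IRF1, a transcription factor of the interferon response, stood at 0.39, 0.14, -0.02 and 0.22 and then at 0.01, -0.69, -0.23 and -0.10, a change of -0.43 (SE 0.15). IRF8, a related factor of immune cells, differed by -0.35 (SE 0.14), and a dimmer probe by -0.38 (SE 0.15). Without week 5 replicate 2 the change of IRF1 was -0.29 and that of IRF8 -0.22. Of the markers of lymphocytes and macrophages 3 of 12 were higher and 9 lower. Their changes lay between -0.15 and 0.15, and the median was -0.10. On single arrays their median ran from -0.34 to -0.12 at week 3 and from -0.55 to -0.04 at week 5. The part of immune cells in the OASL values was not tested.

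Cell cycle genes were lower at week 5 in most cases, again without a call. Of 22 measured genes 3 were higher and 19 lower, with a median of -0.16, beside -0.09 in the fat line and -0.01 over all genes in lean birds. An unadjusted p under 0.05 was reached by 5, all lower, beside 0.764% of all genes in that direction. The ages did not overlap for 3, also all lower, beside 0.973% of all genes. The list was chosen with earlier results of these data known, so these counts are descriptions and not a test. MCM6, a subunit of the replicative helicase, stood at 0.60, 0.39, 0.44 and 0.37 at week 3 and at 0.16, -0.01, 0.24 and 0.11 at week 5, a change of -0.32 (SE 0.14). MCM2, of the same helicase, stood at 0.38, 0.07, 0.60 and -0.03 and then at -0.34, -0.29, -0.18 and -0.05, a change of -0.47 (SE 0.21). The ages lay apart for both subunits, narrowly for MCM2.

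PBK, a mitotic kinase, differed by -0.55 (SE 0.20), with 0.23 to 0.72 at week 3 and -0.52 to 0.44 at week 5. STMN1, which destabilises microtubules, differed by -0.41 (SE 0.18) and by -0.48 (SE 0.14) on a dimmer probe, and its brightest probe gave -0.26 without week 5 replicate 2. In the fat line PBK differed by -0.47 (SE 0.20) and STMN1 by -0.21 (SE 0.18). TOP2A, the topoisomerase of dividing cells, stood at 0.06, -0.48, -0.22 and -0.27 at week 3 and at -0.67, -1.59, -0.88 and -0.70 at week 5, so its ages lay apart. Its change was -0.74 (SE 0.24, 95% interval -1.22 to -0.25), but a dimmer probe of the gene gave -0.08 (SE 0.21). Without 1 array at a time the median of the cell cycle list lay between -0.21 and -0.15. Over all alternatives of the processing it ran from -0.21 to -0.09.

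The brightest TOP2A probe varied with the globins. Its correlation over the 30 arrays with HBBA, a beta globin, was 0.90, while that of the dimmer TOP2A probe was 0.56 and the median over all tested probes was 0.01. A dimmer probe of the kinase gene STK10, among the 10 smallest p-values of all probes, correlated with HBBA at 0.93, and an unnamed probe at 0.94. These 3 spots lie at row 9 and column 5 of blocks 27, 28 and 25 of the array. The spot at the same row and column of block 26, NFASC, had a correlation with HBBA of -0.14 and a change of -0.0091. Of 44 tested probes at this row and column in any block, 5 had a correlation over 0.5. They include the 3 spots above, which singled out this position, so the count is only a description. Among all tested probes 4.16% had a correlation over 0.5. The probes at this position with 0.5 or less had a median of 0.015, a value that the cut itself lowers. The part of the print position in the values was not tested. The STK10 probe differed by -1.27 (SE 0.33), and the brightest STK10 probe by 0.07 (SE 0.19). PBK, MCM2, MCM6 and STMN1 had correlations with HBBA of 0.73, 0.72, 0.66 and 0.64. Group means were not removed before any of these correlations, so differences between ages and lines enter them.

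HBA1, an alpha globin, stood at -0.16, -0.27, -0.02 and -0.28 at week 3 and at -0.34, -1.44, -0.47 and -0.62 at week 5, a change of -0.53 (SE 0.21) that was -0.29 without week 5 replicate 2. HBBA stood at -0.14, -0.54, 0.08 and -0.17 and then at -0.65, -0.67, -0.73 and -0.72, a change of -0.50 (SE 0.22). Both globins lay lower at week 5 without overlap, and in the fat line they differed by -0.35 (SE 0.21) and -0.76 (SE 0.22). The other 6 measured markers of red blood cells had changes between -0.12 and 0.21 with overlapping arrays, and the median of all 8 was -0.03, with 3 higher and 5 lower. On single arrays the list median ran from -0.24 to -0.15 at week 3 and from -0.42 to -0.12 at week 5. The part of red blood cells in the changes of the cell cycle probes was not tested.

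**Figure D4:**
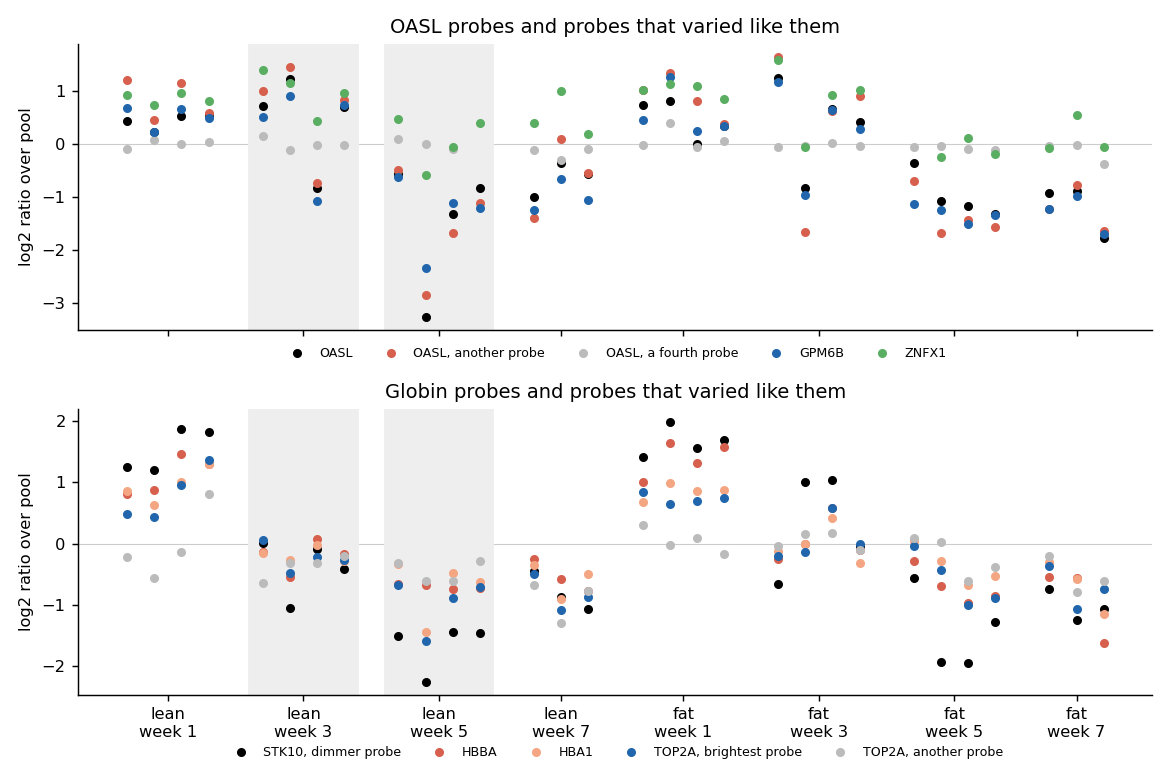
Log2 ratio over the common pool (y axis) on each of the 30 arrays of the fit, grouped by line and age (x axis), for OASL probes and probes like them (top) and globin probes and probes like them (bottom); lean weeks 3 and 5 are shaded. In the top panel replicate 3 of lean week 3 is low beside its group and replicate 2 of lean week 5 is the lowest, at -3.27 for OASL. In the bottom panel the grey TOP2A probe changed by -0.08 between the shaded groups and the blue one by -0.74.

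The remaining lists had medians between -0.08 and 0.08. Over the 27 lists, which hold 467 measured genes, 6 medians lay above 0 and 21 below, and 3 exceeded 0.1 in size: those of the hormones, of the granule genes and of the cell cycle. The medians on single arrays did not overlap between the ages for 2 of the 27 lists, the glucocorticoid response and the neurons, and both are given below. The number of lists expected to do so by chance was not computed, so this count is a description. For protein and energy supply, the cytosolic ribosomal proteins had 17 of 44 genes higher and a median of -0.01, oxidative phosphorylation 18 of 42 and -0.01, glycolysis 7 of 16 and -0.01, and the proteasome 8 of 29 and -0.02. For endoplasmic reticulum folding and stress 12 of 32 genes were higher with a median of -0.02, for cytosolic chaperones 6 of 21 with -0.05, and for cholesterol and fatty acid synthesis 11 of 27 with -0.01.

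In the signalling lists no gene passed. The exocytosis machinery had 5 of 11 genes higher and a median of 0.00, the circadian clock 4 of 9 and -0.03, and cyclic AMP and calcium signalling 11 of 23 and -0.03. In the last list RGS4, a brake on G protein signalling, differed by -1.01 (SE 0.40). It stood at 0.73, 0.32, 0.00 and 0.33 at week 3 and at 0.63, -1.72, -0.97 and -0.60 at week 5, so 3 of the 4 week 5 arrays lay below all of week 3, and without replicate 2 of week 5 the change was -0.66. Of the immediate early genes 7 of 9 were higher, with a median of 0.03 and BTG2 as the largest. Of the genes of the glucocorticoid response 3 of 12 were higher, with a median of -0.08, beside 0.00 in the fat line. On single arrays the list median ran from -0.11 to 0.02 at week 3 and from -0.20 to -0.14 at week 5, so the ages lay apart. GLUL, the glutamine synthetase, had the lowest change of these at -0.48 (SE 0.24), which was -0.84 without week 5 replicate 1 and -0.22 without week 5 replicate 2.

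Markers of the other cell types that the dissected tissue can hold were also followed. Neurons and posterior lobe had 10 of 14 genes higher with a median of 0.08, beside 0.04 in the fat line, and 2 of them had no overlap, as had 1.96% of all genes. On single arrays the list median ran from -0.05 to 0.02 at week 3 and from 0.06 to 0.10 at week 5, so the ages lay apart. SNCB, a synuclein of nerve endings, stood at -0.22 to -0.07 at week 3 and at 0.01 to 0.13 at week 5, a change of 0.24 (SE 0.14). SYP, a protein of synaptic vesicles, differed by 1.19 (SE 0.57) but was usable on 2 and 3 arrays only, and the change was 0.69 without week 3 replicate 3. Endothelium and smooth muscle had 13 of 23 genes higher and a median of 0.02. Fibroblasts and extracellular matrix had 8 of 25 and -0.03, muscle, cartilage and bone 6 of 18 and -0.03, and glia and folliculostellate cells 3 of 10 and -0.06. SPARC, a matrix protein, differed by -0.36 (SE 0.17), or by -0.19 without week 5 replicate 2, and SOX10, a glial transcription factor, by 0.35 (SE 0.23).

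**Figure D5:**
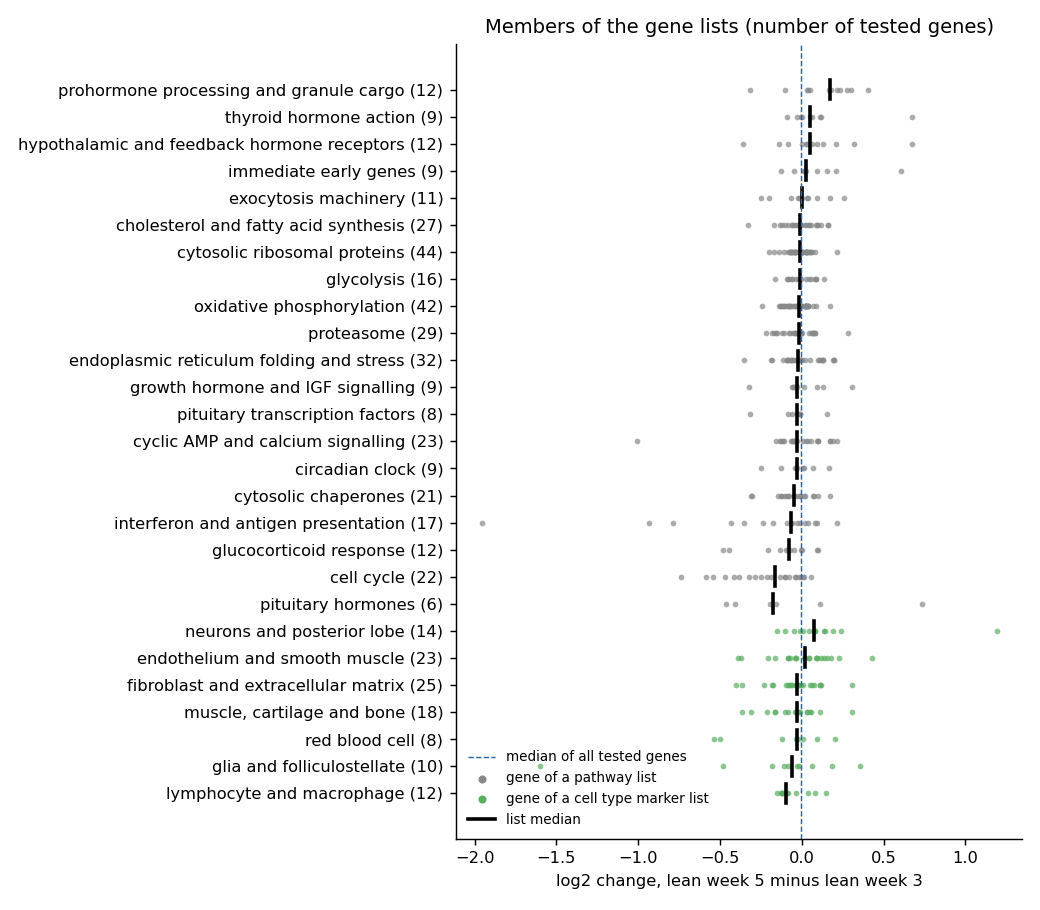
Change from week 3 to week 5 in the lean line (x axis, log2) for the measured genes of 27 lists (rows, with the number of genes); points are genes, grey for pathway lists and green for cell type markers, bars are list medians and the dashed line is the median of all genes. The list medians run from -0.18 for the hormones to 0.17 for the granule genes, and OASL at -1.96 and GPM6B at -1.60 stand far from the rest of their lists.

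Whether these changes differ from those of the fat line was tested directly, since the fat arrays are not shared with the lean comparison. The difference between the lines in the change from week 3 to week 5 passed for 0 of 14745 probes (0%) by limma, and 163 probes (1.11%) had an unadjusted p under 0.05. Within the fat line the count was also 0 (0%), with 347 probes (2.35%) at an unadjusted p under 0.05. Of the 12 named genes that were higher in lean birds, 7 had the same sign in the fat line, and of the 12 that were lower, 11 had. The share of all genes with the same sign in both lines was not counted. The lower ones include the globins HBA1 and HBBA, and TOP2A, MCM2 and MCM6, which varied with HBBA. They are therefore not 12 separate agreements.

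The smallest p of the line difference belonged to DCAF8, at 0.83 (SE 0.26, limma, adjusted p = 1.00). The fat arrays showed a change of -0.07 (SE 0.18) for this gene, with means of -0.02 at week 3 and -0.09 at week 5. C17orf75 differed by -0.71 (SE 0.35) in lean and by 0.96 (SE 0.39) in fat birds. It stood at -0.08, -0.23 and 0.37 on the usable week 3 arrays and at -1.05, -0.55 and -0.45 on those of week 5 in the lean line. Without background correction its lean change was -0.15. ATP6V0A2, a membrane subunit of the vesicle proton pump, differed by 0.21 (SE 0.11) in lean and by -0.26 (SE 0.11) in fat birds, with 0.12 in lean birds without week 5 replicate 2.

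The neighbouring steps of the lean line share arrays with this one, the step from week 1 with week 3 and the step to week 7 with week 5, so only values are set side by side. From week 1 to week 3 limma called 10 of 14745 probes (0.0678%), 3 higher (0.0203%) and 7 lower (0.0475%), and 753 (5.11%) had an unadjusted p under 0.05. From week 5 to week 7, with 3 arrays at week 7, it called 0 (0%) and 2329 (15.8%) had an unadjusted p under 0.05. Replicate 3 of lean week 7 had the widest spread around its group mean of all 32 arrays, at 0.45, and its part in this count was not tested. The step between them, with 278, had the fewest. Among the genes described, the globins differed most before week 3. HBA1 differed by -1.14 and HBBA by -1.31 from week 1 to week 3, against -0.53 and -0.50 from week 3 to week 5 and 0.14 and 0.16 afterwards. TOP2A gave -1.04, -0.74 and 0.15 over the same steps on its brightest probe. OASL gave 0.02, -1.96 and 0.86, so its lean means stood at 0.44, 0.46, -1.49 and -0.64 at weeks 1, 3, 5 and 7. BTG2 gave 0.40, 0.60 and 0.16, and GPC3 gave 0.45, 0.80 and 0.12. DCAF8 gave -0.47, 0.76 and -0.61, with its highest lean mean, 0.35, at week 5.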

How the data were processed

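The files of 32 arrays of pituitary RNA from both chicken lines at 4 ages were used. Per the file headers, TIGR Spotfinder 2.2.4 wrote the deposited intensity of each spot and its background in both channels, not normalized, together with a quality score and other spot measures (area, quality marks). The authors also deposited a table of log2 ratios whose normalization is not given in the sources used here, and it served as an alternative; on the 8 lean arrays of weeks 3 and 5 it correlated with the ratios computed here at 0.58 to 0.64, each array with its own column best.

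Intensities were divided by spot area, corrected with normexp (offset 50) and normalized by loess within each array, as log2 of Cy3 over Cy5, with R 4.3.3 and limma 3.58.1. Probes usable on at least 24 arrays and at least 2 per group were tested (14745), of which 5872 carry no gene symbol. Group means of the 8 groups were fitted in limma to 30 arrays, leaving 22 residual degrees of freedom. Week 7 replicate 2 of both lines was left out, since 54.1% of its spots matched between the files against at most 0.844% in other pairs. Tests were two-sided with Benjamini-Hochberg adjustment over all tested probes at 0.05. The fit was also run on simulated data with independent errors of equal spread on every array. The real arrays differed in spread, from 0.20 to 0.45 around their group mean, so the simulation does not test the p-values given here. The number of arrays limits the precision.

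A gene stands for its brightest probe, named from GEO's platform annotation with symbols updated through RefSeq. Named genes are the 12 per direction with the smallest p and no overlap, the 3 with the smallest p for the line difference, all hormones, and up to 4 per list with the smallest p, not all of them printed. The genes, lists and the comparison were chosen with earlier results of these data known. No set test was run. Plots were drawn with matplotlib 3.10.9.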

Additional observations from a re-analysis of the deposited data

Results flagged for a closer look

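In 13 of 154 sets of 4 arrays (probes described above and 27 list medians, each at week 3 or week 5 in lean birds), 1 array stood far from the other 3 by Dixon's criterion. Chance alone does so in about 1 of 20 sets when the sets are independent and not chosen by their values. Many of these probes were chosen by their p on the same arrays, and some lists share genes. The count can therefore not be read as an excess over chance. Replicate 1 of week 5 was the far array for SCIN at 4.05 (others 0.41 to 0.61) and for the red blood cell median at -0.116 (others -0.42 to -0.37). Replicate 2 of week 5 was the far array for the STK10 probe that varied like the globins at -2.25 (others -1.51 to -1.43), for FURIN at 0.068 (others -0.38 to -0.31) and for the median of the granule genes at 0.262 (others 0.024 to 0.061). Replicate 3 of week 5 stood apart for THRA at 1.77 and for the median of endothelium and smooth muscle at -0.058. At week 3, replicate 1 stood apart for SUCLG1 at -0.93 (others 0.13 to 0.27) and the median of the glucocorticoid response at 0.018. Replicate 2 did so for THRA at 0.072 (others -0.51 to -0.41) and for the medians of cytosolic ribosomal proteins at 0.019 and of thyroid hormone action at -0.026. Replicate 3 did so for the median of glia and folliculostellate cells at -0.535 (others -0.24 to -0.19).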

How the results depend on the processing

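The result that no probe passed held in 25 alternatives, 2 of them chosen after seeing the data (the replicate block on the 8 lean arrays alone, and with array weights). The same held for the line difference in the alternatives that include the fat arrays. Probes with an unadjusted p under 0.05 numbered 278 and, without 1 array at a time, 213 to 400; for the line difference they numbered 163, and 157 to 206. Of 14745 probes, the first count was 466 with only the 8 lean arrays and 603 with array weights. It was 665 with the replicate block on the 8 arrays and 846 with the block and weights. Some alternatives tested another number of probes, so their counts do not compare directly. They gave 458 of 19138 when spots marked as poor were kept and 160 of the 11058 brightest probes. With 1 probe per gene the count was 103 of 5756, and in the authors' table it was 329 of 10423. For the line difference it was 313 with scaling between arrays, 377 with poor marks kept, 325 with weights, 56 with the 11058 brightest probes, 41 with 1 probe per gene and 533 with the block and weights. The replicate block alone gave 365 probes. Around their group means, same-numbered lean arrays of weeks 3 and 5 correlated at 0.02, 0.06, 0.23 and 0.05, and only number 3 correlated best with its own. With so few arrays these values cannot settle whether the replicate numbers pair the arrays. The header day as a block gave 312 probes.

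Of 58 probes followed, 55 kept their sign in every alternative that could test them. The sign turned for FSHB (0.187 with weights, 0.041 with weights and replicate block, -0.579 to 0.124 without 1 array), for the brightest DRG2 probe (-0.0093 with the header day, -0.0021 with scaling, -0.046 to 0.048 without 1 array) and for the brightest STK10 probe (-0.019 to 0.171 without 1 array). Apart from DRG2, whose change was near 0, and without background correction, changes that shrank by over 1.5 times were those of DCAF8 (0.388), FBXW7 (1.3), PLA2R1 (0.523), FURIN (0.164), LEPR (0.162), SYP (0.725), BPIFB2 (-0.639), VCAM1 (-0.558), RASL10B (-0.224) and C17orf75 (-0.149). With poor marks kept those of RASL10B (-0.073), VCAM1 (-0.522), C17orf75 (-0.380), THRA (0.380) and SYP (0.310) did. In the authors' table the change was larger by over 1.5 times for GPC3 (1.6), SUCLG1 (1.33), AIG1 (0.793), ABL1 (-1.0), MCM2 (-0.761), MCM6 (-0.591), RGS4 (-1.56), ZNFX1 (-1.49), GLUL (-0.907), GH (-0.634) and the dimmer STK10 probe (-2.65), and smaller for RDM1 (-0.108), CGA (-0.114) and POMC (0.058). With the header day as a block PBK (-0.318), STMN1 (-0.214), GLUL (-0.306), SUCLG1 (0.285), THRA (0.397) and POMC (0.071) had smaller changes by that factor, and GH (-0.636), CGA (-0.320) and FSHB (-0.537) larger ones. With weights and replicate block ATP6V0A2 (0.126), SCG3 (0.166) and GLUL (-0.308) had smaller ones. List medians moved by more than their spread between arrays in the authors' table for chaperones (0.023), endothelium (0.077), growth hormone and IGF signalling (0.124), immediate early genes (0.163) and neurons (0.108). With weights and block those of folding and stress (0.022), growth hormone and IGF signalling (0.020) and neurons (0.044) did. Without 1 array at a time the median of endothelium ran from 0.011 to 0.063, of the glucocorticoid response from -0.129 to -0.037, of growth hormone and IGF signalling from -0.050 to 0.047 and of red blood cells from -0.163 to -0.0012. The cause was not tested in any of these.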
